A study of Mus musculus with 35 samples.

Results

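Haematopoietic stem and progenitor cells (HSPC) from the bone marrow of Flt3-ITD mice were described by the combination of 3 histone marks that each stretch of the genome carried. Flt3 encodes a receptor tyrosine kinase of early progenitors, and the internal tandem duplication (ITD) is an activating mutation of it that recurs in acute myeloid leukaemia. The members were the 6 Flt3-ITD HSPC peak lists, 2 each for H3K4me1, H3K4me3 and H3K27ac, of 30 peak lists among the 35 samples of the series. The other lists came from HSPC of WT, Npm1c and DM mice and from WT neutrophils, 6 lists for each, and the labels give the strain of all as C57BL/6. DM is not spelled out in the labels and was read as the mutant that carries both Npm1c and Flt3-ITD. The HSPC were a bulk preparation depleted of lineage-positive marrow cells, with no further sorting named, so they mix stem cells with several kinds of progenitor. For age, sex, pooling and the making of the alleles the labels used here say nothing. The series design calls the 2 libraries of a group biological replicates.

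H3K4me1 is laid down over enhancers and over the flanks of promoters, H3K4me3 over the starts of genes, and H3K27ac over promoters and enhancers in use. An enhancer with H3K4me1 and no H3K27ac is commonly called primed, and 1 with both is called active. H3K4me3 without H3K27ac is found at promoters with little or no transcription as well as at active ones, and no repressive mark was measured here. In bulk chromatin a mark on fewer cells and less of the mark per cell cannot be told apart, and marks called in the same region need not lie on the same cells or alleles.

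All peaks of the 6 lists on chromosomes 1 to 19 were merged where they overlapped, and a region carried a mark when a peak of both libraries of that mark touched it. This gave 141566 regions, of which 99805 carried at least 1 mark. A gene's promoter was classed in the same way over 1 kb on each side of its start. RefSeq promoters (mm10, assembly GRCm38.p6), reaching from 250 bases before the start to 50 after it, were taken for 1 gene of each state except H3K27ac only. The reason was that the states differed in how many CG dinucleotides their promoters held. The 7 promoters are shown 5′ to 3′ along the strand of the gene, and the capitals mark every CG.
Flt3: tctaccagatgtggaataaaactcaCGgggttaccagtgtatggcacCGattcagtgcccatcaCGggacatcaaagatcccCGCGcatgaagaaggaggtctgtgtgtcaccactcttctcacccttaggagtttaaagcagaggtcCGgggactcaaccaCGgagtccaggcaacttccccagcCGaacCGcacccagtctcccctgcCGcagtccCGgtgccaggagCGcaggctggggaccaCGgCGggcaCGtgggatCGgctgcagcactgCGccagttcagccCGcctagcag
Polr2a: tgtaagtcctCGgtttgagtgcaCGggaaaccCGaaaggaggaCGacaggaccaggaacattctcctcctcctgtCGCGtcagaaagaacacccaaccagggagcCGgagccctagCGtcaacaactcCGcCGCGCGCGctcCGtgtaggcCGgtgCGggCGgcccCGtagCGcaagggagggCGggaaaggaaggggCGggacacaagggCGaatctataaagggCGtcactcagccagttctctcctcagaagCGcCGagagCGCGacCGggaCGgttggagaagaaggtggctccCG
Sox2: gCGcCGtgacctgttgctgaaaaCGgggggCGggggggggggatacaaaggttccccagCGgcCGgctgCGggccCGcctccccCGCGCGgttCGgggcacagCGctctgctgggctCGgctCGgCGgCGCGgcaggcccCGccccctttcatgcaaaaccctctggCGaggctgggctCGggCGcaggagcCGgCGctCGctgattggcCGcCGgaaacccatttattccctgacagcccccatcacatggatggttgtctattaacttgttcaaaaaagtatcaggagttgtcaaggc
Fcer1a: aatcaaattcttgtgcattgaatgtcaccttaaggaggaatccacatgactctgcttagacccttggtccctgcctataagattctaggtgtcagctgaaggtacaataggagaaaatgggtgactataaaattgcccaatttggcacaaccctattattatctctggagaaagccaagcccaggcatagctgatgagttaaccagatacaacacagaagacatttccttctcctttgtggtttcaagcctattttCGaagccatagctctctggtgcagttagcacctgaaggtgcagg
Igll1: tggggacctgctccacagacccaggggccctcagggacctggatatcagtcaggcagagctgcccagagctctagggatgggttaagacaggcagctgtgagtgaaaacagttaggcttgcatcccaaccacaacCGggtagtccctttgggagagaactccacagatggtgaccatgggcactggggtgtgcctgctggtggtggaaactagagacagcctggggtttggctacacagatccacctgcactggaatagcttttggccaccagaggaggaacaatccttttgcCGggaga
Hoxa9: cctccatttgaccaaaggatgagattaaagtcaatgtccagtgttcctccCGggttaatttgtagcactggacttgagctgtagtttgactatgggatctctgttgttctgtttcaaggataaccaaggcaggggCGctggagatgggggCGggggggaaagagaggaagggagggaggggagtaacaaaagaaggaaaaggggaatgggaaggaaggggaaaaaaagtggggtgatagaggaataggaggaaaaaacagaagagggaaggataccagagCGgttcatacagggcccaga
Alb: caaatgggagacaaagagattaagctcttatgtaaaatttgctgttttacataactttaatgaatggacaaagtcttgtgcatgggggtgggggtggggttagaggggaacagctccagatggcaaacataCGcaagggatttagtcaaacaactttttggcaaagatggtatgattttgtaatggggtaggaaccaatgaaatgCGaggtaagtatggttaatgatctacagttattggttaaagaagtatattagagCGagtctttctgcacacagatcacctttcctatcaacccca

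Flt3, in chr5:147400440-147400739 on the minus strand, had all 3 marks and 18 CG dinucleotides. Polr2a, a subunit gene of RNA polymerase II in chr11:69758584-69758883 on the minus strand, had H3K4me3 and H3K27ac and 30. Sox2, a neural and pluripotency factor in chr3:34649745-34650044 on the plus strand, had H3K4me1 and H3K4me3 and 27. The other 4 promoters held few. Fcer1a, an IgE receptor gene of mast cells and basophils in chr1:173227180-173227479 on the minus strand, had H3K4me3 only and 1 CG. Igll1, a pre-B cell receptor gene in chr16:16863936-16864235 on the minus strand, had H3K4me1 and H3K27ac and 2. Hoxa9, a self-renewal factor in chr6:52227321-52227620 on the minus strand, had H3K4me1 only and 4. Alb, the liver albumin gene in chr5:90460620-90460919 on the plus strand, had no mark and 3. Fcer1a and Igll1 lay below the median counts of their states, 12 and 6.5 CG. Flt3 lay below the 22 of its state, and Polr2a and Sox2 lay above the 24 and 17 of theirs. These promoters are therefore not typical of their states.

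The 6 Flt3-ITD lists were within the lengths of the other lists for H3K4me1 and H3K27ac, and H3K4me3 replicate 2 was the longest H3K4me3 list of the series. H3K4me1 had 127505 and 114959 peaks on chromosomes 1 to 19, H3K4me3 had 32272 and 38493, and H3K27ac had 23109 and 24234. Complete lists held from 102927 to 131205 peaks in the 10 libraries of H3K4me1, from 30310 to 39320 for H3K4me3 and from 21709 to 30150 for H3K27ac. Every H3K4me1 and H3K4me3 peak of the Flt3-ITD lists was 1000 bp wide, whereas H3K27ac peaks had medians of 512 and 544 bp and reached 7879 and 7463 bp. The lists hold coordinates alone, so the read depth behind them is unknown. The libraries of a mark agreed to different degrees, with base-pair Jaccard indices (shared over combined length) of 0.495 for H3K4me1, 0.671 for H3K4me3 and 0.696 for H3K27ac. Of the regions with an H3K4me1 peak 69.3% had it in both libraries, against 78.1% for H3K4me3 and 73.7% for H3K27ac.

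Most marked chromatin in Flt3-ITD HSPC carried H3K4me1 alone. This state had 66030 regions, 66.2% of the marked ones, with a median width of 1131 bp and a total of 80.9 Mb. The next were 15446 regions with H3K4me1 and H3K4me3 (15.5%, 23.0 Mb) and 11320 with all 3 marks (11.3%, 26.6 Mb). Regions with all 3 marks were the widest, with a median of 2250.5 bp, so they made up 19.1% of the marked length. A region that joins peaks of more marks tends to be wider by construction, and a wider region can touch peaks of more marks. The remaining states were small: 2298 regions had H3K4me1 and H3K27ac, 2022 had H3K4me3 only, 1870 had H3K4me3 and H3K27ac, and 819 had H3K27ac only. The other 41761 regions had no mark in both libraries, and 96.4% of them held an H3K4me1 peak in 1 library.

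**Figure D1:**
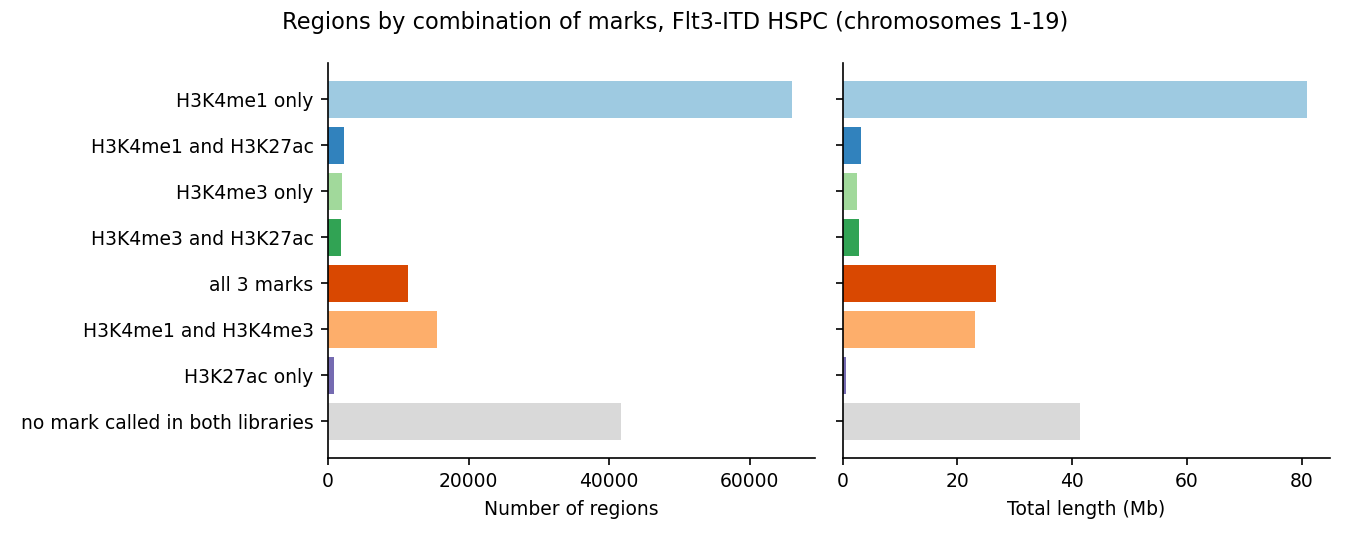
Number of merged regions (left) and their summed length in Mb (right) for each combination of marks called in both Flt3-ITD HSPC libraries; each bar is 1 state. H3K4me1 alone leads both panels with 66030 regions and 80.9 Mb, and regions with all 3 marks take a larger share of the length (26.6 Mb) than of the number (11320).

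Acetylation went with H3K4me3 rather than with H3K4me1 alone. Of 68328 regions with H3K4me1 and no H3K4me3, 3.36% carried H3K27ac, whereas 42.3% of 26766 regions with both methyl marks and 48.0% of 3892 regions with H3K4me3 alone of the methyl marks did. The same order was present within 1 kb of gene starts (28.7%, 67.6% and 74.9%), and away from starts H3K4me1 without H3K4me3 was again the lowest (1.95%, 24.99% and 24.3%). Looked at from the acetylated side, 69.4% of the 16307 regions with H3K27ac had all 3 marks, 14.1% had H3K4me1 as the only other mark, 11.5% had H3K4me3 as the only other mark and 5.02% had neither.

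The small states depend on single calls. Of the regions with H3K4me3 only, 54.7% had an H3K4me1 peak in 1 of the libraries, and of those with H3K4me1 and H3K27ac, 23.4% had an H3K4me3 peak in 1. With H3K27ac peaks of at least 500 bp, 765 regions had H3K4me1 and H3K27ac, and without replicate 1 of H3K27ac 3529 did.

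Within the regions of all 3 marks H3K4me3 and H3K27ac lay mostly on the same bases, and H3K4me1 lay mostly beside them. Of the H3K4me3 bases there, counted where both libraries had a peak, 67.7% were also under H3K27ac and 67.4% of the H3K27ac bases were under H3K4me3, whereas 23.4% of the H3K4me1 bases were under H3K4me3 and 24.9% of the H3K27ac bases were under H3K4me1. At least 2 H3K4me1 peaks were found in 33.0% and 30.5% of these regions in the 2 libraries. Classed base by base, 1.41 Mb carried all 3 marks.

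Around the starts of 16457 protein-coding genes this order of marks was regular in both libraries. H3K4me1 covered 33.4% and 31.4% of the bases between 1000 and 800 bp before the start, 20.2% and 20.7% in the first 200 bp after it, and 34.1% and 32.8% between 1000 and 1200 bp after it. H3K4me3 was highest between 200 and 400 bp after the start, at 56.3% and 56.9%. H3K27ac was highest in the same stretch, at 42.4% and 45.9%. It fell to 25.8% and 30.1% in the 200 bp before the start, and was 29.6% and 31.7% in the 200 bp before that.

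**Figure D2:**
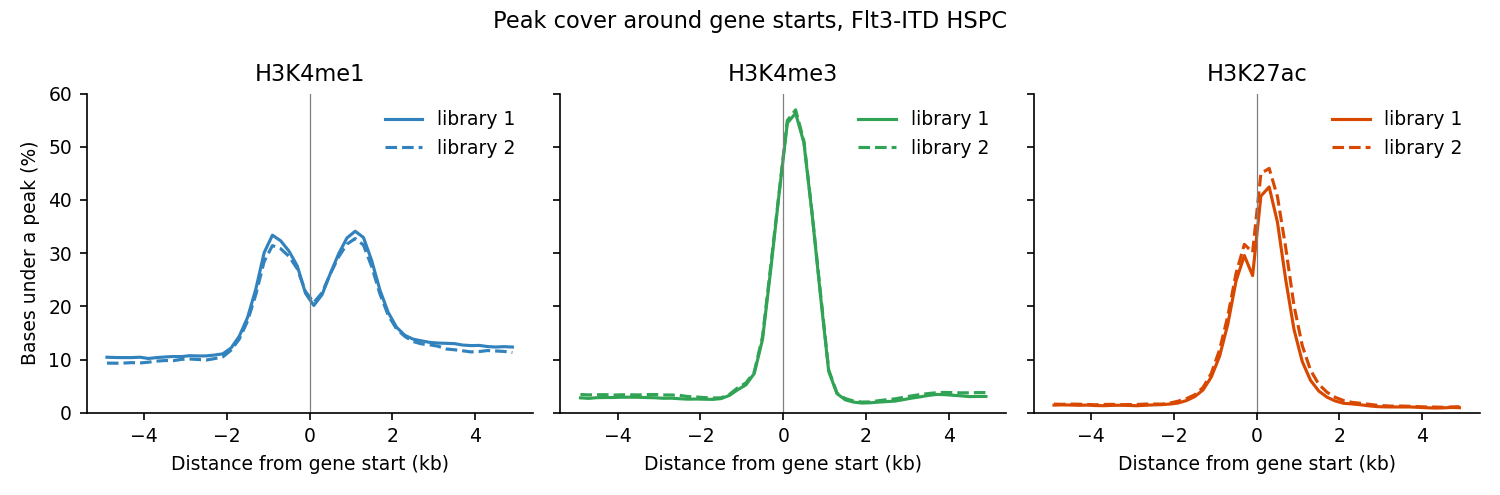
Percentage of bases under a peak (vertical axis) against distance from the gene start in kb, in 200 bp steps over 16457 genes, for each mark of Flt3-ITD HSPC; solid and dashed lines are the 2 libraries. H3K4me1 has 1 hump on each side of the start with a dip to about 20% at it, H3K4me3 has a single peak just after it, and H3K27ac has a dip just before it.

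Regions of each state took different places relative to genes (chromosome 18, for which no start was listed, left out). Of the regions with H3K4me1 only, 3.38% lay within 1 kb of a start, 58.2% in a gene span and 37.0% between genes, and their median distance to a start was 30267 bp. Regions with H3K4me3 and H3K27ac lay at starts in 63.0% and those with all 3 marks in 56.4%, at median distances of 708 and 961.5 bp. Regions with H3K4me1 and H3K4me3 resembled neither group, with 19.8% at starts, 41.6% in gene spans and a median distance of 17500.5 bp. H3K4me1 with H3K27ac was at starts in 39.0% (5141.75 bp). H3K4me3 only was there in 19.6% (19035.5 bp) and H3K27ac only in 32.2% (4339.75 bp). Ends of genes without a listed start took from 1.41% (H3K4me1 only) to 11.0% (H3K4me3 with H3K27ac) of the regions of a state. Of the regions away from these starts, the start of a long non-coding RNA was near 2.27% with H3K4me1 only, 9.33% with all 3 marks and 13.4% with H3K4me3 and H3K27ac.

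**Figure D3:**
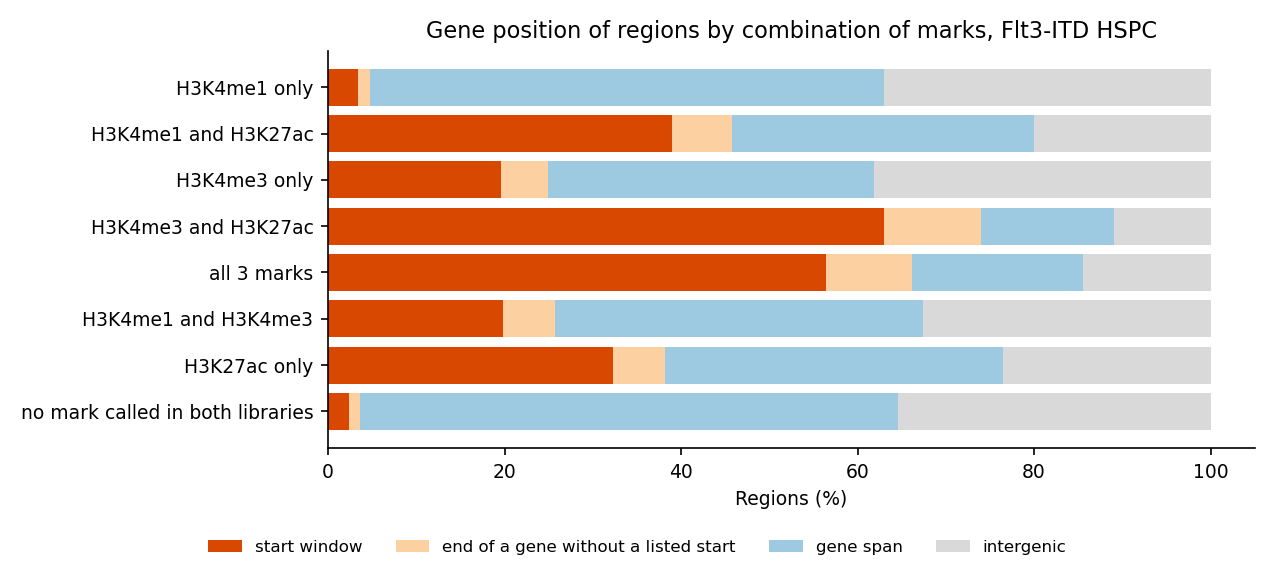
Share of regions (horizontal axis, %) by gene position for each state of Flt3-ITD HSPC, without chromosome 18; colours are the window of 1 kb on each side of a start, the ends of genes without a listed start, the rest of gene spans, and intergenic sequence. The start window takes 63.0% of regions with H3K4me3 and H3K27ac and 3.38% of regions with H3K4me1 only.

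Foxp1, Arid1b, Foxn3, Pde4d and Arhgap26 held the most chromatin with H3K4me1 only. Each region was given to the gene whose span it overlapped most, or to the nearest gene within 50 kb, which placed 90.2% of the regions. Foxp1, a forkhead repressor (6:98925342-99522746), led with 122 kb in 97 regions. In them H3K4me1 peaks covered 98 kb in each Flt3-ITD library, while H3K27ac covered 0.666 and 0.235 kb. Arid1b, a subunit of the SWI/SNF remodeller (17:4994297-5347656), had 94.0 kb in 74 regions, and Foxn3, another forkhead gene (12:99190081-99563667), had 84.1 kb in 65. Pde4d, a cAMP phosphodiesterase (13:108654177-109955969), had 80.9 kb and Arhgap26 (18:38601617-39376285) had 77.0 kb, each in 64 regions. These totals favour long spans: at Foxp1 the state made up the equivalent of 20.5% of the span. The widest single region of this state lay in Foxn3 (12:99375477-99379579, 4103 bp), with H3K4me1 peaks over 3000 and 2000 bp.

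Etv6, an ETS-family repressor needed by blood stem cells (6:134035700-134270158), held the most chromatin with all 3 marks, 30.1 kb in 12 regions. H3K27ac covered 16.6 and 13.9 kb of these regions in the Flt3-ITD libraries, H3K4me3 14 and 12 kb, and H3K4me1 19 and 15 kb. In the same regions H3K27ac covered 6.09 and 4.64 kb in WT, 14.0 and 17.5 kb in Npm1c, 22.2 and 12.8 kb in DM and 10.0 and 12.2 kb in neutrophils. Both WT libraries lay below every other library there, but the regions were chosen from Flt3-ITD peaks, which favours the Flt3-ITD values. With H3K27ac peaks of at least 500 bp the total at Etv6 was 16.9 kb, and base by base it was 1.41 kb. Maml3, a Notch coactivator (3:51687320-52105319), had 25.9 kb in 11 regions, with H3K27ac over 11.3 and 9.46 kb in Flt3-ITD and over 1.53 and 1.56 kb in neutrophils. Foxp1 had 24.6 kb in 9 regions, Rreb1, a zinc-finger factor downstream of RAS (13:37778382-37952005), had 24.3 kb in 10, and Zfp217 (2:170108643-170151677) had 22.2 kb in 10. The widest region with all 3 marks was at the start of Zc3h4 (7:16398449-16406707, 8259 bp), where H3K27ac covered 7879 and 7668 bp.

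Gse1 (8:120228501-120581383), which encodes a coiled-coil protein found with histone demethylase complexes, held the most chromatin with H3K4me1 and H3K4me3, 28.3 kb in 18 regions. H3K4me3 covered 18 kb of them in each Flt3-ITD library and H3K27ac 0.200 and 1.29 kb, low by the rule of the state. Asap1, an ARF GTPase-activating protein (15:64086840-64382941), had 22.3 kb in 11 regions with H3K27ac over 1.54 and 0 kb in Flt3-ITD and over 6.21 and 6.54 kb in neutrophils. Zfhx3 (8:108279311-108961636) had 21.3 kb, the Mediator gene Med12l (3:59005419-59318446) 20.6 kb and Pde4d 20.1 kb. The widest such region (10:111579204-111584208, 5005 bp) had no gene within 50 kb.

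In the state of H3K4me1 with H3K27ac, Zmiz1 came first with 9.33 kb in 6 regions. Zmiz1 (14:25457875-25666743) encodes a PIAS-like coactivator. H3K27ac covered 3.31 and 3.25 kb of these regions in Flt3-ITD, 1.11 and 0.547 kb in WT, 0.868 and 3.35 kb in Npm1c, 3.61 and 1.70 kb in DM and 0.276 and 0.313 kb in neutrophils. Thus 1 Npm1c and 1 DM library lay above both Flt3-ITD libraries, and WT and neutrophils lay below them. The total at Zmiz1 rests on single calls: it was 1.10 kb without H3K4me3 replicate 1 and 14.3 kb without H3K27ac replicate 1. Xxylt1, a xylosyltransferase gene that modifies Notch (16:30955347-31081432), had 7.48 kb in 4 regions and the tubulin cofactor gene Tbcd (11:121451991-121617170) had 6.77 kb in 3. Dusp1, an immediate early MAPK phosphatase (17:26505591-26508472), and Zfp36l2, which destabilises AU-rich mRNA (17:84183924-84187947), had 4 regions each. Over the lists without 1 library in turn, the totals ran from 2.79 to 10.7 kb at Xxylt1, 2 to 6.77 kb at Tbcd, 2.26 to 6.86 kb at Dusp1 and 3.89 to 10.6 kb at Zfp36l2. The widest region of the state lay 48 bp from Irf2bp2 (8:126594035-126599047, 5013 bp), and 1 Flt3-ITD H3K4me3 library covered 2000 bp of it while the other covered 0 bp.

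Merged regions with H3K4me3 and H3K27ac and no H3K4me1 took up several kb at a few genes. Their length is not the length that both marks cover. Base by base, and with a 500 bp merging gap, none of the 5 richest genes stayed among the first 5. Irf2bp2, an IRF2 corepressor (8:126588296-126593986), had 1 region of 6585 bp. In it H3K27ac covered 6.57 and 6.30 kb and H3K4me3 2000 bp in each Flt3-ITD library. Without H3K27ac replicate 1 the total at Irf2bp2 was 2.95 kb. Tgif1, a repressor of TGF-beta signalling (17:70844205-70853532), had 1 region of 6.27 kb, and 0 kb without H3K4me1 replicate 2. Zfp36l2 had 6.83 kb in 3 regions, and Zeb2, a zinc-finger repressor (2:44983512-45117442), had 6.68 kb in 2 with H3K27ac over 5.93 and 5.98 kb. Where H3K4me3 stood alone, Gnas, Stau1, Asap1, Pax6 and Nrip1 had the most, between 4.37 and 5.37 kb in 2 or 3 regions each. With marks called in 1 of 2 libraries, Gnas had 1 kb of this state and the other 4 had 0 kb. The widest such region lay in Tfdp1 (8:13359285-13361962, 2678 bp). H3K27ac alone was scattered, with at most 2.68 kb per gene (Metap2), followed by Acoxl, Zfp217, Plek2 and Diaph1. Its widest region (12:78922740-78925284, 2545 bp) lay 15567 bp from Plek2.

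At promoters all 3 marks was the most common state. Of 16457 genes with a start, 6848 (41.6%) had all 3 marks within 1 kb, 5002 (30.4%) had none, 2692 (16.4%) had H3K4me1 and H3K4me3, 933 (5.67%) had H3K4me3 and H3K27ac and 659 (4%) had H3K4me1 only. H3K4me3 only was present at 286 (1.74%), H3K4me1 with H3K27ac at 30 (0.182%) and H3K27ac only at 7 (0.0425%). Any H3K27ac was called at 47.5% of starts, any H3K4me3 at 65.4% and any H3K4me1 at 62.2%. These shares are the background for every list of genes below. The state of H3K4me3 with H3K27ac depended on the window: with 2 kb on each side, 140 promoters had these marks without H3K4me1.

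The CG content of promoters differed between the states. The median ratio of observed to expected CG was 0.853 with H3K4me3 and H3K27ac, 0.808 with all 3 marks, 0.638 with H3K4me1 and H3K4me3, 0.540 with H3K4me3 only, 0.291 with H3K4me1 and H3K27ac, 0.226 with H3K4me1 only and 0.167 with none, against 0.605 over all genes. It was 0.818 with H3K27ac only, a state of 7 promoters. The GC content of promoters with H3K4me1 and H3K4me3 (median 62.3%) was no lower than that of promoters with all 3 marks (61.7%). The Flt3 promoter printed above has a ratio of 0.647, below the lower quartile of its state (0.663). The Sox2 and Polr2a promoters have 0.819 and 0.995, above the upper quartiles of theirs (0.815 and 0.971). Igll1 and Fcer1a have 0.0833 and 0.0700, below the lower quartiles of their states (0.172 and 0.341).

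The shares of 11 motifs, searched on both strands, differed between the states. The SP/KLF box GGGCGG was present in 68.7% of promoters with all 3 marks, 70.3% with H3K4me3 and H3K27ac, 63.3% with H3K4me1 and H3K4me3, 19.4% with H3K4me1 only and 10.8% with none, against 47.9% of all promoters. The ETS motif CCGGAAG was in 22.8%, 20.4%, 4.57%, 3.03% and 2.64% in the same order (12.5% of all). TATAAA went the other way, with 5.77%, 7.18%, 8.36%, 11.99% and 27.9% (13.3% of all). The NRF1 palindrome was in 2.70% with all 3 marks and 0.520% with H3K4me1 and H3K4me3 (1.37% of all). Of the motifs of blood factors, AGATAAG, which binds GATA factors, was in 1.52% with all 3 marks, 4.10% with H3K4me1 only and 4.36% with none (2.59% of all). In the same order, RUNX (TGTGGTT) was in 3.31%, 7.59% and 7.62% (4.86% of all). The PU.1 type (GAGGAAG) was in 12.7%, 16.5% and 13.2% (13.1% of all), and CCAAT in 39.0%, 34.3% and 42.0% (38.8% of all). For GATA and RUNX, promoters with H3K4me1 only were thus close to those with no mark. The C/EBP motif TTGCNNAA was in 7.64% with all 3 marks and 15.7% with none (10.2% of all), and the AP-1 motif TGANTCA in 4.09% and 12.1% (7.04% of all). The CRE motif TGACGTCA was in 3.81% with all 3 marks and 0.580% with none (2.35% of all). Motifs can overlap, and several contain CG themselves.

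Among stem and progenitor genes, 9 of 15 with a listed start had H3K27ac (60%, against 47.5% of all genes). All 15 had H3K4me3 (against 65.4% of all genes). All 3 marks lay at 7, among them the receptor genes Kit and Flt3, the surface antigen gene Cd34 and the ETS factor gene Erg. Mycn and Etv6 had H3K4me3 and H3K27ac. The other 6, among them the stem cell factor genes Gata2, Mecom and Hlf and the receptor gene Tek, had H3K4me1 and H3K4me3. With a window of 2 kb 11 of the 15 had H3K27ac, and with calls in 1 of 2 libraries 12 did. The share of all genes is not given here for these settings. Beyond promoters, 20 of the 21 listed genes had at least 1 region with H3K4me1 only (95.2%), against 59.1% of all 20665 genes, with a median of 10 per gene against 1 over all genes. Kit (5:75574987-75656722) had 22 such regions and 1 region with all 3 marks. Runx1 had the most, 56, and was singled out after its values were seen. Numbers of regions per gene favour long spans, and span length was not adjusted for.

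At Flt3 itself (5:147330741-147400489), H3K27ac covered 835 and 1468 bp of the 2001 bp around the start in Flt3-ITD, 498 and 387 bp in WT, 742 and 1746 bp in Npm1c, 1656 and 1488 bp in DM and 0 bp in both neutrophil libraries. Every mutant library lay above both WT libraries. The whole H3K27ac lists also differed in length, with 14.8 and 14.9 Mb in WT and 16.2 and 17.97 Mb in Flt3-ITD. Npm1c had 22.9 and 23.4 Mb and DM 19.9 and 13.2 Mb. The part of list length in this and the other comparisons of H3K27ac between groups was not tested. Over the gene with 10 kb on each side the same mark covered 5.39 and 4.30 kb in Flt3-ITD, 0.942 and 0.718 kb in WT, 3.84 and 4.63 kb in Npm1c and 11.8 and 6.33 kb in DM. Flt3 had 8 regions with H3K4me1 only, 3 with all 3 marks, 2 with H3K4me3 and H3K27ac and 1 with H3K4me1 and H3K4me3. Npm1 (11:33152498-33164142), which encodes nucleophosmin and is mutated in the Npm1c mice, had 2 regions with H3K4me1 only and 1 each with H3K4me1 and H3K27ac, H3K4me3 only and all 3 marks.

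Gata2, which encodes a zinc-finger factor of stem cells and mast cells (6:88193891-88207032), was split between libraries. H3K27ac covered 0 and 949 bp of its start window in Flt3-ITD, 514 and 610 bp in WT, 1179 and 1323 bp in Npm1c and 0 bp in both DM and both neutrophil libraries. Its state of H3K4me1 and H3K4me3 therefore rests on 1 Flt3-ITD library, and without H3K27ac replicate 1 it had all 3 marks. Hlf was alike, at 0 and 575 bp in Flt3-ITD, 0 and 856 bp in Npm1c and 0 bp in WT, DM and neutrophils. Mecom had 0 bp in both Flt3-ITD libraries beside H3K4me1 over 963 and 885 bp and H3K4me3 over 1000 bp in each. With a window of 2 kb on each side, both Mecom and Gata2 had all 3 marks in Flt3-ITD. Tek had no H3K27ac in any of the 10 libraries.

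Kit had 969 and 1349 bp of H3K27ac in Flt3-ITD, 1005 and 1006 bp in WT, 1243 and 1383 bp in Npm1c and 353 and 578 bp in DM. The Flt3-ITD libraries lay on either side of WT. Cd34 (1:194938821-194961292) had 514 and 551 bp against 236 and 212 bp in WT, 413 and 524 bp in Npm1c and 753 and 443 bp in DM. Erg (16:95359169-95586600) had 905 and 935 bp, and between 728 and 819 bp in the WT and neutrophil libraries. Kit and Cd34, but not Erg, were at 0 bp in neutrophils.

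**Figure D4:**
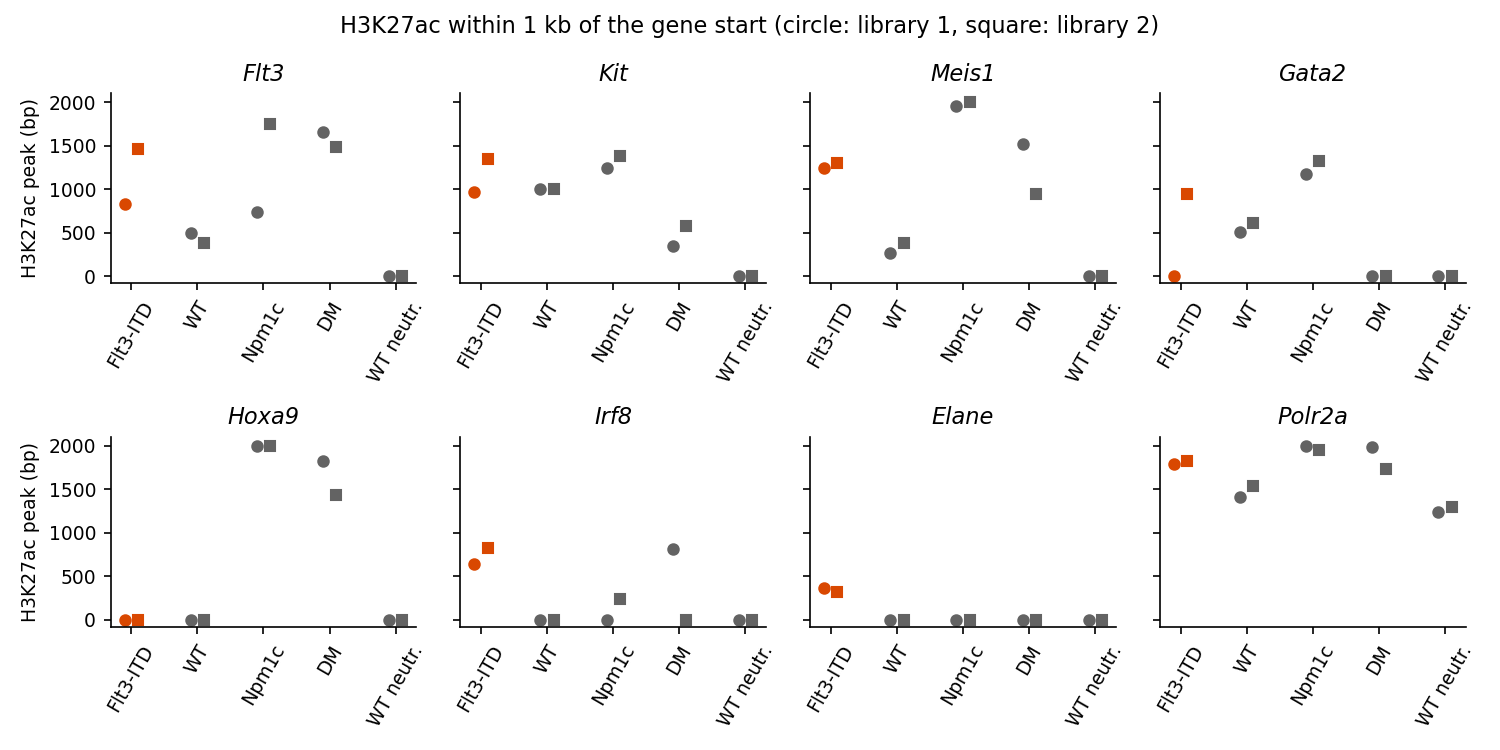
H3K27ac peak length (vertical axis, bp) within 1 kb on each side of the start of 8 genes in every library; circles are library 1, squares library 2, orange is Flt3-ITD HSPC and grey the other groups. Elane is covered in Flt3-ITD alone (366 and 320 bp), Hoxa9 in Npm1c and DM alone, and the Flt3-ITD libraries of Gata2 are split (0 and 949 bp).

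Genes of granulocyte-monocyte progenitors and primary granules had H3K27ac at 8 of 13 starts (61.5%, against 47.5% of all genes). Mpo, Elane and Ctsg, granule enzymes of promyelocytes, and Cebpa, the factor that opens the granulocyte programme, had all 3 marks. Elane, neutrophil elastase (10:79886312-79888216), had 366 and 320 bp of H3K27ac in Flt3-ITD and 0 bp in all 8 other libraries, where the promoter had H3K4me1 and H3K4me3. Mpo, myeloperoxidase (11:87793784-87804412), had 1367 and 835 bp in Flt3-ITD, 249 and 233 bp in WT, 869 and 1096 bp in Npm1c, 676 and 414 bp in DM and 0 bp in neutrophils. Ctsg (14:56099885-56102574) had 1900 and 1902 bp against 899 and 941 bp in WT, and Cebpa (7:35119293-35121928) had 1669 and 1695 bp against 774 and 820 bp in WT. Prtn3, a protease gene next to Elane, had H3K4me1 only, and Ms4a3, Fcgr3 and Cd63 had H3K4me1 and H3K4me3.

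Irf8, the factor of monocyte and dendritic progenitors (8:120736358-120756694), was added after its values were seen. H3K27ac covered 646 and 825 bp of its start window in Flt3-ITD, 0 bp in both WT libraries, 0 and 234 bp in Npm1c, 819 and 0 bp in DM and 0 bp in neutrophils. In WT, Npm1c and DM, with no H3K27ac call in both libraries, the promoter had H3K4me1 and H3K4me3. Irf8 also had 17 regions with H3K4me1 only, 2 with H3K4me1 and H3K27ac and 2 with all 3 marks. Among 11 monocyte, macrophage and dendritic genes, 5 starts had H3K27ac (45.5%, near the 47.5% of all genes). The chemokine receptor gene Ccr2 was 1 of them, with 458 and 249 bp in Flt3-ITD, 0 bp in WT and 0 and 349 bp in Npm1c. Irf4, Itgax and Clec9a had H3K4me1 and H3K4me3.

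All but 1 of the late neutrophil genes were without acetylation. Of 17, only Csf3r, the G-CSF receptor gene, had H3K27ac (5.88%, against 47.5% of all genes). The mark covered 882 and 810 bp there in Flt3-ITD and 1492 and 1534 bp in neutrophils. S100a8, Lcn2, Mmp8 and Cxcr2 were among 6 with H3K4me1 and H3K4me3. S100a8, a subunit of calprotectin (3:90669071-90670034), had 1000 bp of H3K4me1 and 1000 bp of H3K4me3 in each Flt3-ITD library, no H3K27ac in any HSPC library, and 1000 and 1293 bp of H3K27ac in neutrophils. S100a9, the other subunit (3:90692630-90695721), had no mark in both Flt3-ITD libraries and 1571 and 1322 bp of H3K27ac in neutrophils.

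Erythroid genes had H3K27ac at 6 of 10 starts (60%, against 47.5% of all genes). Klf1, Tfrc, Gfi1b and Aqp1 had all 3 marks, Epor and Rhag had H3K4me3 and H3K27ac, and Hba-a1, Hba-a2 and Hbb-bs, the globin genes, had none. Klf1, the erythroid master factor (8:84901982-84905291), had 1253 and 1743 bp of H3K27ac in Flt3-ITD against 1797 and 1745 bp in WT and 370 and 318 bp in DM. Gfi1b (2:28609450-28621982) had 339 and 857 bp against 865 and 939 bp in WT and 0 bp in DM, so both Flt3-ITD libraries lay below WT and above DM. Megakaryocyte genes had H3K27ac at 3 of 9 starts (33.3%, against 47.5% of all genes). These were the platelet receptor genes Gp1ba and Gp9 and the GATA1 cofactor gene Zfpm1. Pf4, Itga2b, Gp1bb and Selp were among 5 with H3K4me1 and H3K4me3.

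Lymphoid genes had few acetylated starts. Of 9 B-lymphoid genes 1 had H3K27ac (11.1%, against 47.5% of all genes) and 8 had H3K4me1 (88.9%, against 62.2% of all). The acetylated gene was Igll1, a surrogate light chain of the pre-B cell receptor, with 198 and 63 bp in Flt3-ITD, 132 and 195 bp in Npm1c, 251 and 121 bp in DM and 0 bp in WT and neutrophils. Cd79a, Vpreb1, Rag1 and Il7r had H3K4me1 only, Ebf1, Cd22 and Rag2 had H3K4me1 and H3K4me3, and Pax5, the factor that commits B cells, had none. Of 12 T and NK genes 9 had H3K4me1 (75%), a share near that of all genes, with Cd3d, Cd3g, Cd8a and Lck among 5 with H3K4me1 only. Nkg7, a granule protein gene, was the only 1 with H3K27ac (8.33%), at 540 and 613 bp. With a window of 2 kb on each side, Vpreb1 and Lck had all 3 marks. Eosinophil, basophil and mast cell genes had H3K27ac at 0 of 9 starts (against 47.5% of all genes). Epx, Hdc, Ms4a2 and Cpa3 were among 5 with H3K4me1 and H3K4me3. Without H3K27ac replicate 2, Hdc had all 3 marks.

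Other-tissue genes had the largest share without a mark among the 15 lists. None of 23 had H3K27ac (against 47.5% of all genes), and 18 had no mark (78.3%, against 30.4% of all). With a window of 2 kb on each side, 1 of the 23 had H3K27ac, Gfap with all 3 marks. The developmental factor genes Neurod1, Cdx2, Pax6 and Sox2 were exceptions with H3K4me1 and H3K4me3. Sox2 (3:34649995-34652461) had 685 and 1502 bp of H3K4me1 and 1000 bp of H3K4me3 in each Flt3-ITD library, and no H3K27ac in any library. The intestinal gene Vil1 had H3K4me1 only. At the opposite end, all 10 housekeeping genes had H3K27ac (against 47.5% of all genes), 9 of them with all 3 marks (against 41.6% of all). Polr2a had no H3K4me1 within 1 kb in either Flt3-ITD library, beside 1511 and 1443 bp of H3K4me3 and 1792 and 1821 bp of H3K27ac.

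**Figure D5:**
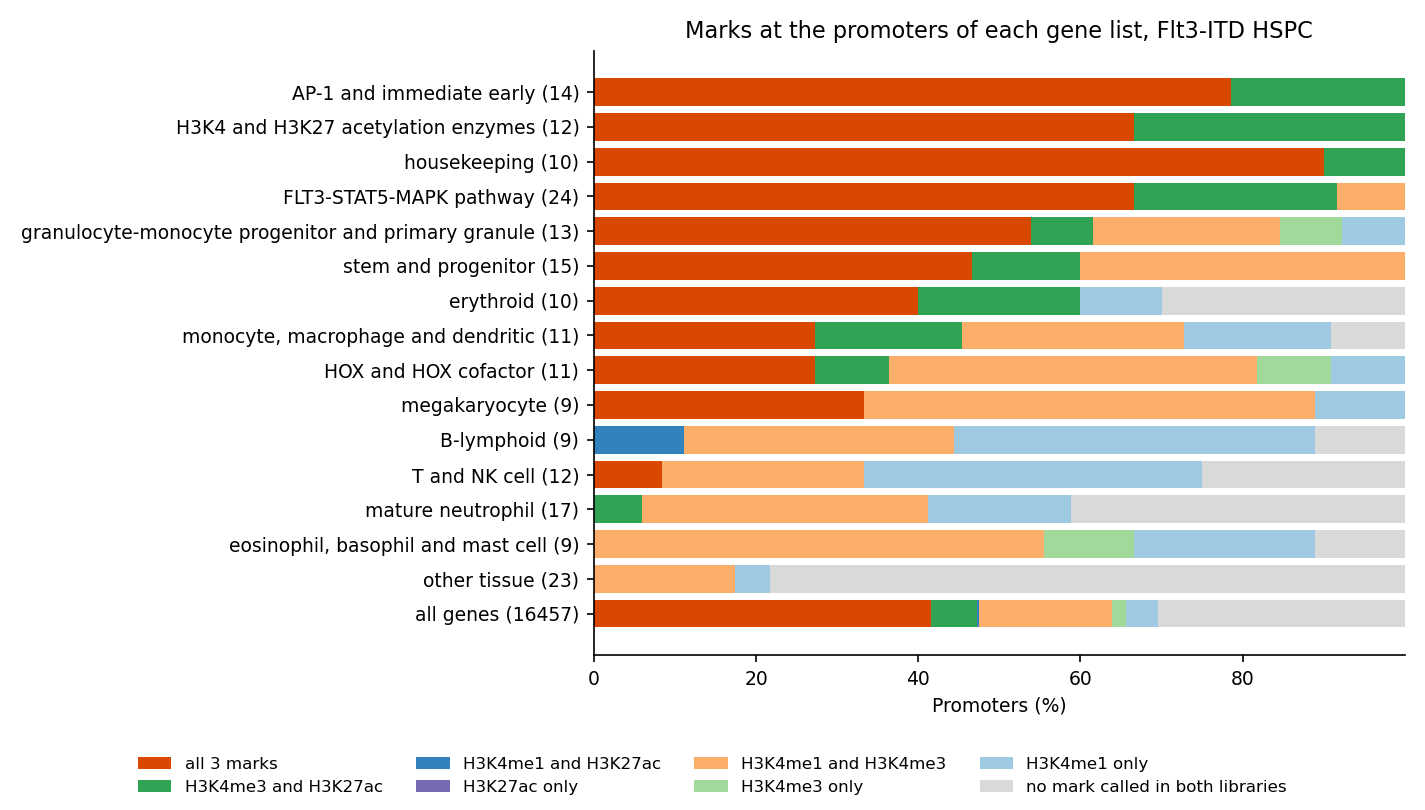
Share of promoters (horizontal axis, %) in each state for 15 gene lists and for all 16457 genes with a start in Flt3-ITD HSPC, with the number of genes in brackets; lists are ordered by their share with H3K27ac. The share with H3K27ac runs from 100% of AP-1 genes to 0% of other-tissue genes, against 47.5% of all genes.

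FLT3 signals through STAT5, RAS-MAPK and AKT. Of 24 genes of this pathway with a start, 22 had H3K27ac (91.7%), against 47.5% of all genes and 10 of 10 housekeeping genes. Of these 22, 16 had all 3 marks and 6 had H3K4me3 and H3K27ac. The ligand gene Flt3l, the adaptor genes Gab1 and Shc1 and Flt3 itself had all 3 marks. Sos1, an exchange factor for RAS, Cbl, a ubiquitin ligase of the receptor, the kinase gene Jak2 and the inhibitor gene Socs1 had H3K4me3 and H3K27ac. The adaptor gene Grb2 and the inhibitor gene Socs3 were the only 2 without H3K27ac in both libraries. Grb2 had 0 and 305 bp in Flt3-ITD. Socs3 (11:117966079-117970336) had 0 bp in both Flt3-ITD libraries and 1334 and 1648 bp in neutrophils.

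Targets and feedback genes of the pathway were named after their values were seen. Cish, a STAT5 target and inhibitor (9:107296659-107302784), had 853 and 1231 bp of H3K27ac in Flt3-ITD, 814 and 734 bp in WT, 1562 bp in each Npm1c library and 1761 and 1082 bp in DM. Both Flt3-ITD libraries lay above both WT libraries. Pim1, a kinase gene that STAT5 induces, had 1569 and 1614 bp against 1630 and 1602 bp in WT, an overlap. Dusp6, an ERK phosphatase, had 1325 and 1766 bp against 1497 and 1736 bp in WT, again an overlap. Spry1, a feedback inhibitor of receptor tyrosine kinases (3:37639947-37644599), had 645 and 775 bp against 0 bp in WT, 686 and 911 bp in Npm1c and 556 and 629 bp in DM.

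AP-1 and immediate early genes, which answer growth signals within minutes, had H3K27ac at 14 of 14 starts (against 47.5% of all genes). Fos, Fosb, Junb and Egr2 were among 11 with all 3 marks, and Fosl2, Jun and Jund had H3K4me3 and H3K27ac. Fos (12:85473890-85477274) had 1625 and 2001 bp of H3K27ac in Flt3-ITD against 1271 and 1336 bp in WT. The genes of the enzymes behind the marks had H3K27ac at 12 of 12 starts (against 47.5% of all genes). The H3K4 methyltransferase genes Kmt2a and Setd1a and their cofactors Wdr5 and Rbbp5 were among those with all 3 marks. Kmt2c, Kmt2d, the demethylase gene Kdm1a and the acetyltransferase gene Ep300 had H3K4me3 and H3K27ac.

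HOX genes and their cofactor gene Meis1 had H3K27ac at 4 of 11 starts (36.4%, against 47.5% of all genes). H3K4me3 was called at 10 of the 11 (against 65.4% of all genes). Hoxa3, Hoxa7 and Hoxb4 had all 3 marks and Meis1 had H3K4me3 and H3K27ac. Hoxa2, Hoxa6, Hoxa10 and Hoxa11 were among 5 with H3K4me1 and H3K4me3, and Hoxa5 had H3K4me3 only. Hoxa9 (6:52223097-52227370) had H3K4me1 over 1000 bp and no H3K27ac in either Flt3-ITD library, and H3K27ac over 2001 bp in each Npm1c library and over 1821 and 1434 bp in DM. With a window of 2 kb Hoxa9 had all 3 marks in Flt3-ITD. Meis1 (11:18880428-19019651) had 1243 and 1300 bp of H3K27ac in Flt3-ITD, 263 and 388 bp in WT, 1956 and 2001 bp in Npm1c and 1519 and 949 bp in DM. Hoxa7 (6:52215623-52218573) had 483 and 511 bp against 277 and 247 bp in WT, and 2001 bp in each Npm1c library.

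MicroRNA genes showed the same states at a smaller number. Of 919 RefSeq hairpins, classed within 1 kb of the middle, 615 had no mark, 120 had H3K4me1 only, 87 had all 3 marks, 67 had H3K4me1 and H3K4me3, 13 had H3K4me3 and H3K27ac, 8 had H3K4me1 and H3K27ac, 7 had H3K4me3 only and 2 had H3K27ac only. Those named here were taken from a list of blood and HOX-cluster microRNAs after their values were seen. Their mature sequences from RefSeq are shown with the seed, bases 2 to 8, in capitals, because 2 pairs share a seed but lie in different states.
mmu-miR-196b-5p: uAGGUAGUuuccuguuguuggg
mmu-miR-196a-5p: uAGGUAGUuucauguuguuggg
mmu-miR-10a-5p: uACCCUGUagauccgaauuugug
mmu-miR-10b-5p: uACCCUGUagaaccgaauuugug
mmu-miR-142a-3p: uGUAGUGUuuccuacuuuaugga
mmu-miR-451a: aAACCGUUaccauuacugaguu

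Mir196b, inside the Hoxa cluster (6:52230081-52230165), had all 3 marks in Flt3-ITD, with H3K27ac over 822 and 777 bp. It had 0 and 48 bp in WT, 2001 bp in each Npm1c library, 2001 and 1627 bp in DM and 0 bp in neutrophils. Mir196a-1, the gene on the list for the other microRNA of that seed, had no mark in any group. Mir10a (11:96317165-96317274) had H3K4me1 and H3K27ac, the latter over 141 and 61 bp. It had the same state in Npm1c, DM and neutrophils, and H3K4me1 only in WT. Mir10b, of the same seed, had H3K4me1 and H3K4me3. Mir142, a microRNA gene active across blood cells (11:87756864-87756927), had H3K4me3 and H3K27ac in all 5 groups, with H3K27ac over 2001 bp in each Flt3-ITD library. Mir451a, an erythroid microRNA (11:78073170-78073241), had all 3 marks, with 246 and 437 bp against 698 and 621 bp in WT and 0 bp in DM.

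The states of Flt3-ITD regions held up to different degrees in the other groups. Of the 11320 regions with all 3 marks, 81.9% had all 3 in WT, 88.5% in Npm1c, 84.0% in DM and 71.3% in neutrophils, and the most common other state was H3K4me1 with H3K4me3 (11.5%, 5.73%, 10.5% and 18.5%). Regions with H3K4me1 and H3K27ac kept both marks without H3K4me3 in 59.1%, 66.5%, 48.8% and 33.9%. In 27.6%, 14.6%, 26.4% and 30.9% of them the other group had H3K4me1 only. H3K4me1 only was matched in 76.4%, 57.3%, 61.5% and 46.6%, H3K4me1 with H3K4me3 in 67.5%, 59.8%, 67.0% and 43.7%, and H3K4me3 with H3K27ac in 64.3%, 66.2%, 61.0% and 49.9%. H3K4me3 only was matched in 37.6%, 41.2%, 33.0% and 20.3%. In each of the 6 states just given the neutrophils had the smallest share. The Npm1c H3K27ac lists covered 22.9 and 23.4 Mb and the Flt3-ITD ones 16.2 and 17.97 Mb, and the part of list length in these shares was not tested.

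Promoters with all 3 marks mostly had the same state in the other groups. Where a gene had several starts, all groups were read at the start with the most marks in Flt3-ITD, which can favour the Flt3-ITD state. Of the 6848 promoters with all 3 marks in Flt3-ITD, 92.9% had the same state in WT, 93.5% in Npm1c, 92.9% in DM and 82.2% in neutrophils. H3K4me1 with H3K4me3 took their place at 285 promoters in WT (4.16%), 138 in Npm1c, 249 in DM and 830 in neutrophils (12.1%). Elane and Irf8 were among the promoters that had this state in WT. Of the 2692 promoters with H3K4me1 and H3K4me3 in Flt3-ITD, 87.2% had it in WT, 68.1% in Npm1c, 73.3% in DM and 57.4% in neutrophils. Of the promoters with H3K4me3 and H3K27ac, 53.5% had the same state in WT and 43.1% had all 3 marks there. Promoters with H3K4me1 only had the same state in 65.7% in WT, 48.0% in Npm1c, 54.0% in DM and 37.6% in neutrophils.

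The number of Flt3-ITD regions was within the range of the other groups in 6 of the 7 states with a mark. With the same rule, regions with all 3 marks numbered 10479 in WT, 13492 in Npm1c, 11634 in DM and 12103 in neutrophils, beside 11320 in Flt3-ITD. Those with H3K4me1 only numbered 76024, 53824, 57482 and 62714, beside 66030. Those with H3K4me1 and H3K4me3 numbered 13637, 12221, 15121 and 12953, all below the 15446 of Flt3-ITD. The part of the long H3K4me3 list in this number was not tested in the comparison with the other groups. Within Flt3-ITD, the number was 16209 without H3K4me3 replicate 2 and 20934 without H3K4me3 replicate 1.

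Whether the marks met more or less often in Flt3-ITD than in the other HSPC was tested on 6 shares of peaks per library, 2 libraries against 6, by a two-sided exact permutation test with Benjamini-Hochberg adjustment over the 6. None passed, the smallest p the 28 splits allow being 0.0357. After adjustment over the 6, a share that reached this p alone would not fall below 0.05. The lack of a passing share therefore says little. Both libraries of a group were scored against the same partner peaks of that group, and the 6 others were pairs from WT, Npm1c and DM. The values are therefore not independent, and neither the p-values nor the SDs measure variation between independent samples. H3K27ac peaks on H3K4me3 made up 72.9% ± 0.0723 (SD, n = 2) in Flt3-ITD and 72.0% ± 4.66 (SD, n = 6) in the others (exact permutation p = 0.75, adjusted 0.75). H3K27ac peaks on H3K4me1 without H3K4me3 made up 19.3% ± 0.485 and 20.7% ± 3.56 (exact p = 0.607, adjusted 0.75). H3K27ac peaks on neither made up 7.78% ± 0.557 and 7.28% ± 1.13 (exact p = 0.571, adjusted 0.75). H3K4me3 peaks on H3K27ac made up 38.4% ± 3.91 and 41.9% ± 3.71 (exact p = 0.286, adjusted 0.75). H3K4me1 peaks on H3K27ac made up 12.3% ± 0.851 and 14.4% ± 3.14 (exact p = 0.464, adjusted 0.75), and on H3K4me3 22.9% ± 1.47 and 23.6% ± 3.20 (exact p = 0.75, adjusted 0.75). The 6 other libraries ranged from 65.4% to 78.6% for H3K27ac on H3K4me3, a spread that does not show the groups to be alike.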

How the data were processed

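H3K4me1, H3K4me3 and H3K27ac were measured by ChIP-seq. Per the submitters' processing notes, the authors used Bowtie2 2.1.0, Picard, HOMER and MACS2 with mm10; the deposited file names give HOMER for H3K4me1 and H3K4me3 and MACS2 for H3K27ac, called per library. Calling thresholds and other versions: not given in the sources used here. Deposited values are other than counts or signal: peak coordinates in 3 columns, with no score and no read number, so depth is unknown. The 5 inputs were not used here.

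Peaks were merged, intersected (1 bp) and classed with NumPy 2.4.6 and pandas 2.3.3 in Python 3.11.15; figures used matplotlib 3.10.9. The code was tested on simulated regions. Of 20665 RefSeq protein-coding genes on chromosomes 1 to 19, 16457 had a start (79.6%), and none on chromosome 18. A gene with several starts took the start with the most marks in Flt3-ITD, and its state in the other groups was read at that start. Lists hold 270 distinct genes, 197 with a start. The named genes were the 5 with most kb per state, the widest region per state, up to 4 genes in list order per list and promoter state, and Flt3 and Npm1; 1 gene taken by this rule and its region are not reported here. Members, lists and rules were chosen with earlier results of these data known. Alternatives were calls in 1 of 2 libraries, a 500 bp merging gap, 1000 bp peaks, H3K27ac peaks of at least 500 bp, base-pair segments, 200 bp overlap, a 2 kb window, a replicate block, and leaving out each library.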

Additional observations from a re-analysis of the deposited data

How the results depend on the processing

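The order of the 3 commonest states, H3K4me1 only, H3K4me1 with H3K4me3 and all 3 marks, was the same in every alternative run on merged regions; the small states moved with most choices, and the cause was not tested. Calling a mark in 1 of 2 libraries gave 1.61 Mb of H3K4me3 only, 1235 regions of H3K27ac only, and 177, 421 and 2 promoters with H3K4me3 only, H3K4me3 with H3K27ac and H3K27ac only. Merging across 500 bp left 927 regions (1.84 Mb) of H3K4me1 with H3K27ac, 1265 (1.53 Mb) of H3K4me3 only, 273 (0.460 Mb) of H3K4me3 with H3K27ac and 52 (0.0502 Mb) of H3K27ac only, and raised all 3 marks to 40.6 Mb. With 1000 bp peaks H3K27ac only had 246 regions (0.321 Mb), and with H3K27ac peaks of at least 500 bp it had 172 (0.172 Mb) and H3K4me1 with H3K27ac had 765 (1.20 Mb). Base-pair segments, which by construction split regions, gave 7848 (1.85 Mb) of H3K4me1 with H3K27ac, 32780 (9.32 Mb) of H3K4me3 only, 13710 (7.19 Mb) of H3K4me3 with H3K27ac, 6665 (1.41 Mb) of all 3 marks, 10.5 Mb of H3K4me1 with H3K4me3 and 13238 (3.56 Mb) of H3K27ac only. A 2 kb window gave 14, 140 and 0 promoters with H3K4me1 and H3K27ac, H3K4me3 and H3K27ac, and H3K27ac only. Leaving out 1 library gave from 1561 to 3486 regions (1.69 to 3.94 Mb) of H3K4me3 only, 1936 to 3529 of H3K4me1 with H3K27ac, 817 to 1574 (0.486 to 0.917 Mb) of H3K27ac only, and 3 to 8 promoters with H3K27ac only. The highest of these came without H3K4me3 replicate 1, H3K27ac replicate 1 and H3K27ac replicate 2 in turn. Of the 197 list genes 149 kept their promoter state in all 8 settings, 166 with calls in 1 of 2 libraries and 164 with the 2 kb window. Without H3K4me1 replicate 1 Csf3r, Epor, Cbl, Jun and Jund had all 3 marks, without replicate 2 Jak2, Socs1, Sos1 and Klf4 did, and without H3K27ac replicate 1 Grb2, Cd63 and Hlf did. Of the shares, H3K4me1 on H3K4me3 (Flt3-ITD minus other HSPC) ran from -1.81 to 0.273 percentage points, turning positive without Flt3-ITD replicate 1 and, at 0.0139, without DM replicate 1. H3K27ac on H3K4me3 ran from -0.428, without Npm1c replicate 1, to 2.23. With a replicate block the differences are the same by construction (0.895 percentage points for H3K27ac on H3K4me3) and the exact permutation p of the 6 shares lay between 0.313 and 0.75, with 0.0625 the smallest that 16 splits allow. A check for pairing by library number gave a single correlation for each mark between Flt3-ITD and each other HSPC group. These lay between -0.0909 and 0.133, so the numbers were not taken to pair the samples. They do not measure how far the peak lists themselves overlap. Unknown depth limits every absence of a peak to these peak calls.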

Other observations

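Chromosome X lay outside the rule and was counted on its own. Flt3-ITD HSPC had 1276 and 1177 H3K4me1 peaks there, 0.991% and 1.01% of their lists, and the 6 other HSPC libraries had from 1.08% to 1.65%, a gap seen only after the values were known. For H3K4me3 the shares were 2.06% to 2.21% in Flt3-ITD and 2.103% to 2.37% in the others, which overlap. The labels used here give no sex of the animals, and its part in these shares was not tested.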
